A study of Mus musculus with 8 samples.

Results

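Classical monocytes are white blood cells that are made in the bone marrow, enter the blood through the chemokine receptor Ccr2 and can turn into macrophages or dendritic cells in tissues. The 7 genes described here, Ly6c2, F13a1, Fn1, Vcan, Lyz2, Chil3 and Mgst1, encode proteins that these cells carry or secrete, among them a surface antigen, a clotting factor subunit, matrix proteins and an antibacterial enzyme. They were chosen by name as effector genes of classical monocytes, with earlier results of these data known. Each was read from the probe set whose annotation names that gene and no other (the brightest, where a gene has several). Of the 7 genes, 6 had such a probe set, 1 each, among 19938 genes measured in the same way. Ly6c2 had none: both probe sets that carry its symbol also carry that of its near-identical neighbour Ly6c1, so no level is given for it.

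The genes were measured on 8 Affymetrix mogene 1.0 ST arrays of dendritic cells, which present antigen to T cells, sorted by flow cytometry from 4 mice. Each mouse gave 1 bone marrow sample, labelled as myeloid dendritic cells, and 1 spleen sample, labelled as classical dendritic cells, so that both groups hold 4 arrays. All the mice, in both groups, were CX3CR1-gfp/+ and 8 weeks old, which means that 1 copy of the fractalkine receptor gene carries a green fluorescent protein reporter. The sources used here do not give the surface markers of the sorts and name no treatment, and the question the comparison addresses is how marrow and spleen dendritic cells differ in expression.

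Values are the deposited probe set intensities, a linear brightness with no read depth behind it, and the number of arrays limits the precision. Array medians lay between 125 and 135. Fold changes were fitted on log2 intensities with limma, as bone marrow minus spleen, over all 19938 genes, with Benjamini-Hochberg adjustment and a threshold of 0.05; "higher" and "lower" below mean past that threshold. Of all genes, 9.26% were higher in bone marrow, 9.20% were lower, and 18.5% passed in either direction. The counts of list genes below are to be read beside these shares. The dendritic cell labels were checked on 18 marker genes. The marrow and spleen means were 6408.5 and 8431.8 for the integrin gene Itgax and 15354 and 14678 for the class II gene H2-Ab1. Both populations thus carried these markers, which alone do not settle the labels. Of the 18 markers 10 were lower in bone marrow, Itgax among them (1.32-fold lower, limma adjusted p = 0.0024). The largest folds were those of the receptor kinase Kit (12.6-fold lower, means 289 and 3637), the protease inhibitor Spint1 (12.0-fold lower, 172 and 2064) and Xcr1, the chemokine receptor of cross-presenting dendritic cells (11.2-fold lower, 141 and 1580), and the dendritic lineage genes Flt3 and Zbtb46 were 2.07-fold and 2.43-fold lower. The other 8 did not pass, among them Clec9a (means 1128 and 1043), Batf3 (1676 and 1760) and Irf8 (2428 and 2523). No marker was higher in limma, and none had an unadjusted p under 0.05 in that direction.

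The stretches before the start sites of 3 of the genes are shown because they differ most in how the genes were measured to behave: F13a1 had the largest fold change of the 6, Lyz2 the highest intensity, and Vcan the smallest fold change. Each line gives the 250 bases before the annotated start, 5′ to 3′ on the gene's own strand, from RefSeq on GRCm38.p6, where 6 of the 7 genes had an entry and Fn1 had none. Capitals mark matches to GAGGAA, a core that the myeloid factor PU.1 binds, or to TTNCNNNAA, a loose form of the C/EBP site, on either strand.
F13a1: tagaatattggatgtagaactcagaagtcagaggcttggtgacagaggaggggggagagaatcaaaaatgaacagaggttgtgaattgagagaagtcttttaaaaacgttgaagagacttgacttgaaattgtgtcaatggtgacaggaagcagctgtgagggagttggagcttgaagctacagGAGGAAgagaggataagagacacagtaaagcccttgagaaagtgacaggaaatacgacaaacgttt
Lyz2: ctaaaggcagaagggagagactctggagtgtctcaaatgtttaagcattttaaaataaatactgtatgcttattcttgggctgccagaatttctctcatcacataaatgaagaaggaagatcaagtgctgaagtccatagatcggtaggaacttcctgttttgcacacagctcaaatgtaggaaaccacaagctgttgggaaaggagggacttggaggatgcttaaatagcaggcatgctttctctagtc
Vcan: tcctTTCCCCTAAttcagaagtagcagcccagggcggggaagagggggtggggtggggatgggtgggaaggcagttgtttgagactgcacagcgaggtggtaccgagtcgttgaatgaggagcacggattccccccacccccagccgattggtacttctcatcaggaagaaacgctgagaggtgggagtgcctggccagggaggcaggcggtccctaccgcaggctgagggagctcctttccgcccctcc

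The F13a1 stretch is chr13:37050245-37050494 on the minus strand and belongs to the upstream one of 2 annotated starts. The Lyz2 stretch is chr10:117282273-117282522 and the Vcan stretch is chr13:89742513-89742762, both on the minus strand. GAGGAA stood in F13a1 between 66 and 61 bases before the start, in neither of the other stretches, and in 23.3% of all 32851 promoters of the table. The C/EBP-type pattern stood in Vcan between 246 and 238 bases before the start and in 32.9% of all promoters. Among the 9 annotated promoters of the 6 genes with an entry, 4 held GAGGAA (of F13a1, Ly6c2 and Mgst1) and 2 held the C/EBP-type pattern (of Ly6c2 and Vcan). None held the IRF-type pattern (a pair of GAAA repeats with any 2 bases between, found in 2.98% of promoters), the AP-1-type pattern TGANTCA (6.75%) or the TATA box TATAAA (12.4%), and 4 held CACCC, a KLF-type pattern found in 52.0%. A match is a string of letters in a window and no evidence of binding, and its absence says only that the letters are not there.

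In bone marrow 5 of the 6 measured genes were higher and none was lower, where 9.26% of all genes were higher. Their median log2 fold change was 2.93, against -0.0071 over all genes. Because the genes were chosen with earlier results of these data known, these comparisons with all genes are descriptions only. In the same 5 genes all 4 bone marrow arrays lay above all 4 spleen arrays, a separation that 10.4% of all genes showed. At an unadjusted p under 0.05 in limma, 6 were higher and none was lower, where 2548 of all 19938 genes were higher and 2763 lower. The arrays hold RNA of whole sorted samples, so that more cells carrying a transcript and more transcript per cell cannot be told apart.

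**Figure D1:**
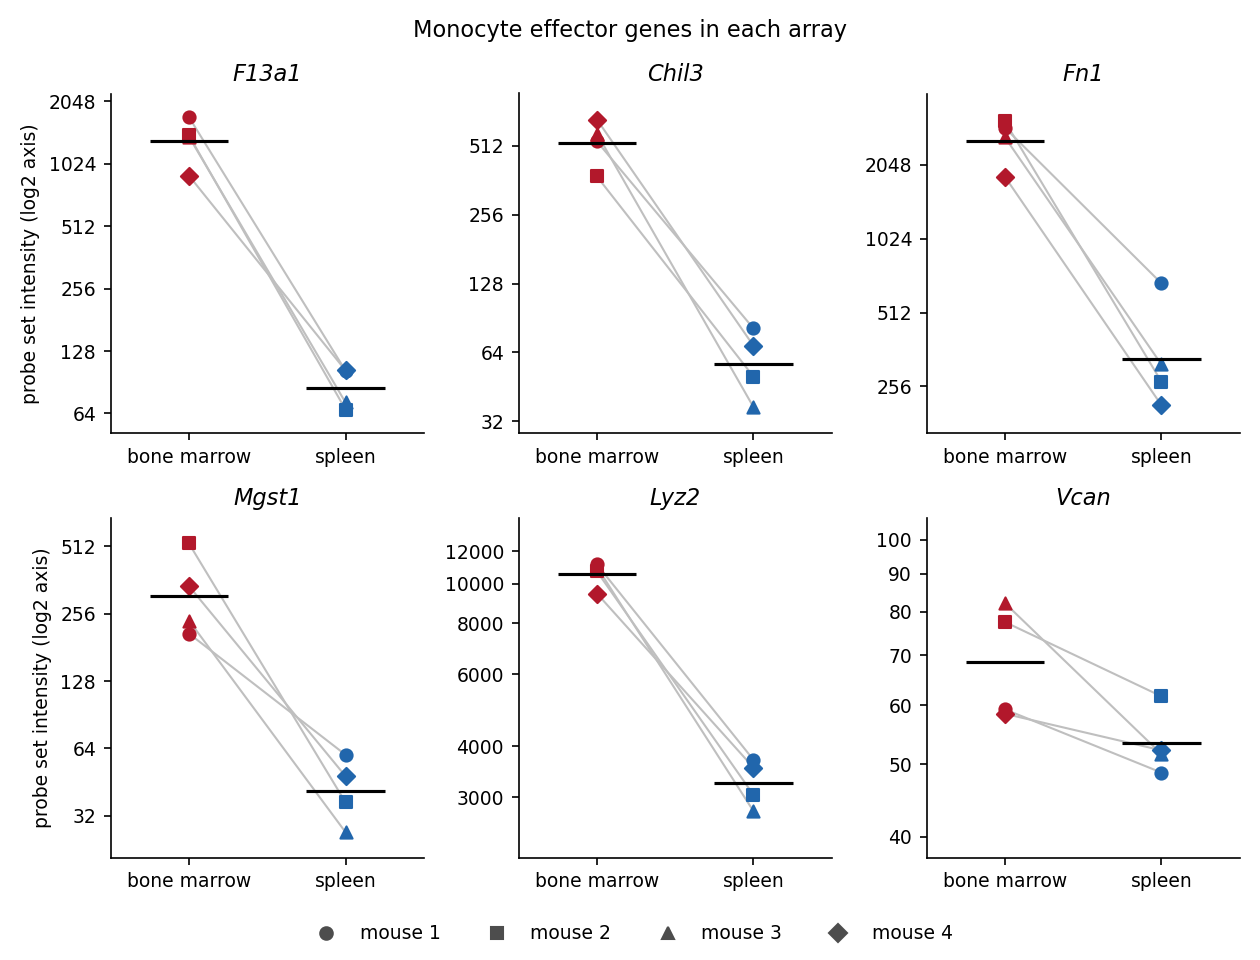
Probe set intensity (log2 axis, own scale in each panel) of the 6 measured genes in bone marrow (red) and spleen (blue); symbols mark the mouse, grey lines join the arrays of 1 mouse and black bars are geometric means of 4 arrays. The groups do not overlap for F13a1, Chil3, Fn1, Mgst1 and Lyz2, while the Vcan values of both tissues lie between 48.8 and 82.2 and overlap.

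F13a1 encodes the catalytic A subunit of coagulation factor XIII, a transglutaminase that cross-links fibrin in a clot. Its intensity was 1716, 1402, 1382 and 896 in marrow replicates 1 to 4, and in the same order 103, 66.9, 72.3 and 103 in spleen. The lowest marrow array, replicate 4, was thus still far above the highest spleen array. The geometric means of 1314 and 84.7 gave a 15.5-fold difference (3.96 ± 0.19 SE on the log2 scale over 4 arrays a tissue, adjusted p = 1.6e-08 in limma). Within the mice the difference ran from 8.68-fold in mouse 4 to 21.0-fold in mouse 2.

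Of 12 measured genes for other transglutaminases and for proteins that form or dissolve the fibrin clot, 2 were higher and 1 was lower, with a median log2 fold change of -0.07. Over all genes 9.26% were higher and 9.20% lower. The lower gene was Tgm2, the tissue transglutaminase, with means of 693 in marrow and 2329 in spleen (3.36-fold lower; -1.75 ± 0.16 SE on the log2 scale over 4 arrays a tissue, adjusted p = 3.6e-06 in limma). F13a1 and Tgm2 therefore differed in opposite directions between the same samples. Plaur, the urokinase receptor that places plasminogen activation on the cell surface, was 3.17-fold higher. The second higher gene, the keratinocyte transglutaminase Tgm1, was 1.51-fold higher (limma adjusted p = 0.018), but missed the threshold when replicate 3 of either tissue or of both was left out (adjusted p up to 0.11). F13b, the carrier subunit that the liver makes for plasma factor XIII, stood at 23.7 in both tissues. The fibrinogen chains Fga, Fgb and Fgg had log2 differences of -0.11, -0.14 and -0.04, none past the threshold.

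Fn1 encodes fibronectin, a matrix glycoprotein that cells grip through integrins and that factor XIII can cross-link to fibrin. Its intensity was 2907, 3083, 2656 and 1833 in marrow, in the order of the mice, and 673, 267, 314 and 214 in the spleen replicates. Spleen replicate 1 lay well above the other spleen arrays, and bone marrow replicate 4 was the lowest of its tissue. The tissues still did not overlap, with means of 2570 and 332 (7.75-fold; 2.95 ± 0.28 SE on the log2 scale over 4 arrays a tissue, adjusted p = 6.9e-06 in limma). In mouse 1, whose spleen array was the high one, the difference was 4.32-fold, and in mouse 2 it was 11.5-fold.

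Vcan encodes versican, a large chondroitin sulfate proteoglycan that binds hyaluronan and is used as a marker of classical monocytes in human blood. It did not pass the threshold. Its intensity was 59.2, 77.6, 82.2 and 58.4 in bone marrow and 48.8, 61.7, 51.6 and 52.2 in spleen, below the median of every array. Spleen replicate 2 lay above bone marrow replicates 1 and 4, so the groups overlapped. The log2 fold change was 0.36 ± 0.12 SE over 4 arrays a tissue (95% interval 0.10 to 0.63, adjusted p = 0.061 in limma). All 4 mice had the higher value in marrow, by 1.12-fold to 1.59-fold, and with the mouse as a replicate block the limma adjusted p was 0.034. The same difference thus passed in the paired fit and missed the threshold in the unpaired one, and it passed or missed with other settings and without single arrays, as given in the closing section. No background value accompanies the intensities, so whether these dim values lie above background is unknown.

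Of 15 measured genes for partners of versican, namely hyaluronan synthases, link proteins, related proteoglycans and versican-cleaving ADAMTS proteases, none was higher or lower in limma and none had an unadjusted p under 0.05. Their log2 fold changes lay between -0.11 (Tnfaip6) and 0.15 (Has1), and their median was 0.03. Of 13 measured receptors of fibronectin and versican, 8 were higher and 1 was lower, with a median log2 fold change of 0.48. Itga9, an integrin chain that binds a spliced form of fibronectin, was 4.11-fold higher (means 784 and 191, limma adjusted p = 4.5e-07). Tlr2, a Toll-like receptor reported to bind versican, was 1.92-fold higher, and Itga5, a chain of the main fibronectin receptor, was 1.72-fold higher. The hyaluronan receptor Cd44, Itga8, Itgav, Itgb1 and the syndecan Sdc4 were the other higher members, by 1.34-fold to 1.59-fold. The Itgb1 call ended without replicate 1, 2 or 3 of both tissues (limma adjusted p up to 0.082). The lower member was Itga4, a chain of the fibronectin and Vcam1 receptor, by 0.27 on the log2 scale (-0.27 ± 0.08 SE, limma adjusted p = 0.037). Its call ended with the mouse as a replicate block, with median centring and without any 1 of 6 arrays (adjusted p up to 0.21). With the mouse as a block 1 member was still lower, the integrin chain Itgb3, which missed the threshold without the block (-0.40 ± 0.15 SE on the log2 scale, limma adjusted p = 0.085).

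Lyz2 encodes lysozyme M, which cuts bacterial cell walls and is made by monocytes, macrophages and neutrophils. Its intensity was 11147, 10723, 10985 and 9462 in bone marrow and 3700, 3036, 2769 and 3541 in spleen. The spread was the smallest of the 6 genes in bone marrow (SD 0.11 on the log2 scale, n = 4) and SD 0.19 in spleen (n = 4). The means of 10557 and 3240 gave a 3.26-fold difference (1.70 ± 0.10 SE on the log2 scale over 4 arrays a tissue, adjusted p = 1.1e-07 in limma). Its neighbour Lyz1, the lysozyme gene of the intestinal Paneth cells, was 2.73-fold higher, at 2608, 2414, 2515 and 1411 in bone marrow and 877, 828, 800 and 688 in spleen (1.45 ± 0.17 SE on the log2 scale over 4 arrays a tissue, adjusted p = 3.7e-05 in limma). The 2 genes are close copies, and how far the RNA of one reaches the probes of the other was not tested. Of the 5 measured lysozyme family genes beside Lyz2, Lyz1 was the 1 that was higher in limma and none was lower (none at an unadjusted p under 0.05). The other 4 (Lyzl1, Lyzl4, Lyzl6 and Spaca3) had log2 fold changes between -0.04 and 0.14.

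Chil3 encodes Ym1, a secreted chitinase-like protein without enzyme activity that is made by alternatively activated macrophages and by neutrophil and monocyte precursors. Its intensity was 536, 376, 579 and 667 in bone marrow and 81.4, 50.1, 36.9 and 68.4 in spleen. Bone marrow replicate 4, the lowest marrow array for F13a1, Fn1 and Lyz2, was the highest for Chil3. The means of 528 and 56.7 gave a 9.33-fold difference (3.22 ± 0.22 SE on the log2 scale over 4 arrays a tissue, adjusted p = 3.7e-07 in limma), and within the mice it ran from 6.58-fold to 15.7-fold. Of 7 other measured chitinase family genes 2 were higher and 1 was lower. Chil1, which encodes another chitinase-like protein, was 2.50-fold higher (means 235 and 93.8, limma adjusted p = 1.4e-05), and Ctbs, a lysosomal enzyme that trims chitobiose from glycans, was 1.34-fold higher. The Ctbs call ended without replicate 1 of both tissues (limma adjusted p = 0.053). Chil5 was 2.22-fold lower, with means of 51.2 and 114 (limma adjusted p = 3.4e-05). Chil4, the close copy of Chil3 known as Ym2, stood at 29.2 and 26.5 (0.14 ± 0.11 SE on the log2 scale over 4 arrays a tissue, adjusted p = 0.50 in limma).

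Mgst1 encodes a membrane-bound glutathione transferase that protects membranes from oxidised lipids. Its intensity was 209, 527, 239 and 340 in bone marrow and 59.9, 36.7, 27.0 and 48.1 in spleen. It had the widest spread of the 6 genes in bone marrow (SD 0.60 on the log2 scale, n = 4), with replicate 2 the highest. The means of 307 and 41.1 gave a 7.48-fold difference (2.90 ± 0.28 SE on the log2 scale over 4 arrays a tissue, adjusted p = 6.9e-06 in limma). The difference was 3.48-fold in mouse 1 and 14.4-fold in mouse 2. Of 5 measured relatives in the MAPEG family of membrane enzymes for eicosanoids and glutathione, 2 were higher and none was lower in limma (1 at an unadjusted p under 0.05). Mgst2 was 1.95-fold higher (410 and 210, limma adjusted p = 0.0012) and Mgst3 1.46-fold higher (261 and 179, limma adjusted p = 0.0046). Alox5ap, which feeds arachidonic acid to 5-lipoxygenase, stood at 5899 and 5557 and did not pass, nor did the leukotriene C4 synthase Ltc4s or the prostaglandin E synthase Ptges. Among 12 glutathione and peroxide enzymes 5 were higher and none was lower (none at an unadjusted p under 0.05 either), with Gstm1, a soluble glutathione transferase, 2.93-fold higher, the thioredoxin reductase Txnrd1 1.39-fold and the glutathione reductase Gsr 1.38-fold. Without replicate 2 of both tissues that count was 3.

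**Figure D2:**
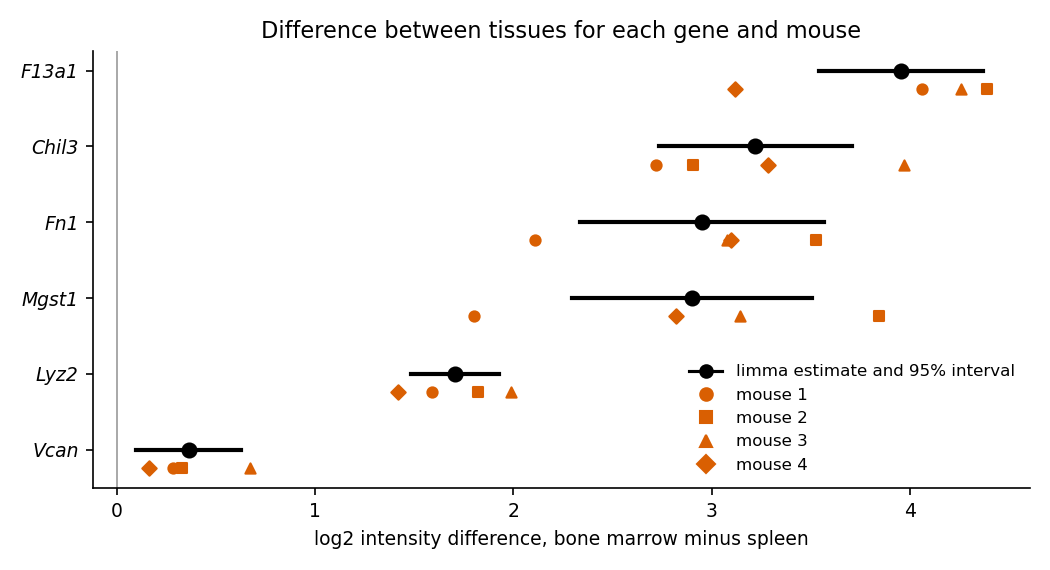
Difference in log2 intensity, bone marrow minus spleen, for the 6 measured genes. Black points and lines are limma estimates with 95% intervals over 4 arrays per group, and orange symbols are the differences within each mouse; every mouse lies above 0 for every gene, and the estimates of Lyz2 and Vcan lie below those of the other 4.

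By size of the fold change the order was F13a1, Chil3, Fn1, Mgst1, Lyz2 and Vcan. The 95% intervals of F13a1 (3.54 to 4.37) and Chil3 (2.74 to 3.71) overlapped, as did those of Chil3, Fn1 (2.34 to 3.57) and Mgst1 (2.30 to 3.51). Such overlap does not settle whether these folds differ. The interval of Lyz2 (1.48 to 1.93) lay below all of these and above that of Vcan. A difference between 2 of these fold changes was not tested. The spleen means of Mgst1 (41.1) and Chil3 (56.7) were about as dim as that of Vcan (53.4). The spleen values of F13a1 (66.9 to 103) also lay below the median of every array. Whether these values lie above background is unknown too, so the sizes of these folds and their places in the order are not fixed. By an exact two-sided permutation test over the 70 splits of the 8 arrays, p was 0.0286 for each gene but Vcan, the smallest value that 4 against 4 arrays allow, and 0.0857 for Vcan. These splits ignore that the arrays come in pairs from 4 mice. Swapping the tissues within the mice gives 16 arrangements and an exact two-sided permutation p of 0.125 for each of the 6 genes, the smallest value possible, so that test could not reach 0.05.

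The 6 genes did not all deviate the same way within a tissue. Bone marrow replicate 4 was the lowest marrow array for 4 of the 6 genes (F13a1, Fn1, Lyz2 and Vcan) and the highest for Chil3. In spleen, replicate 1 was the highest for 4 genes (Fn1, Lyz2, Chil3 and Mgst1) and nearly level with replicate 4 for F13a1. Spleen replicates 1 and 4 both lay above replicates 2 and 3 for F13a1, Lyz2, Chil3 and Mgst1, whereas for Fn1 replicate 4 was the lowest. Other genes differed between the same arrays: the summed intensity of 18 macrophage markers was 28731 in bone marrow replicate 4 and ran from 30479 to 42681 in the other 3, while that of 19 neutrophil markers was 34226 there and ran from 27122 to 35439 in the others. Other sums were highest in that array: that of 16 other classical monocyte genes was 56438 against 48528 to 54472, and that of 13 non-classical monocyte genes was 30884 against 22686 to 26821. Bright genes weigh most in such sums, and genes of 1 list differed. In the classical monocyte list Plac8 stood at 6541 in that array against 3969 to 4880, and Ccr2 at 4169 against 4290 to 5307. The part of the genes of these lists in the spread was not tested.

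**Figure D3:**
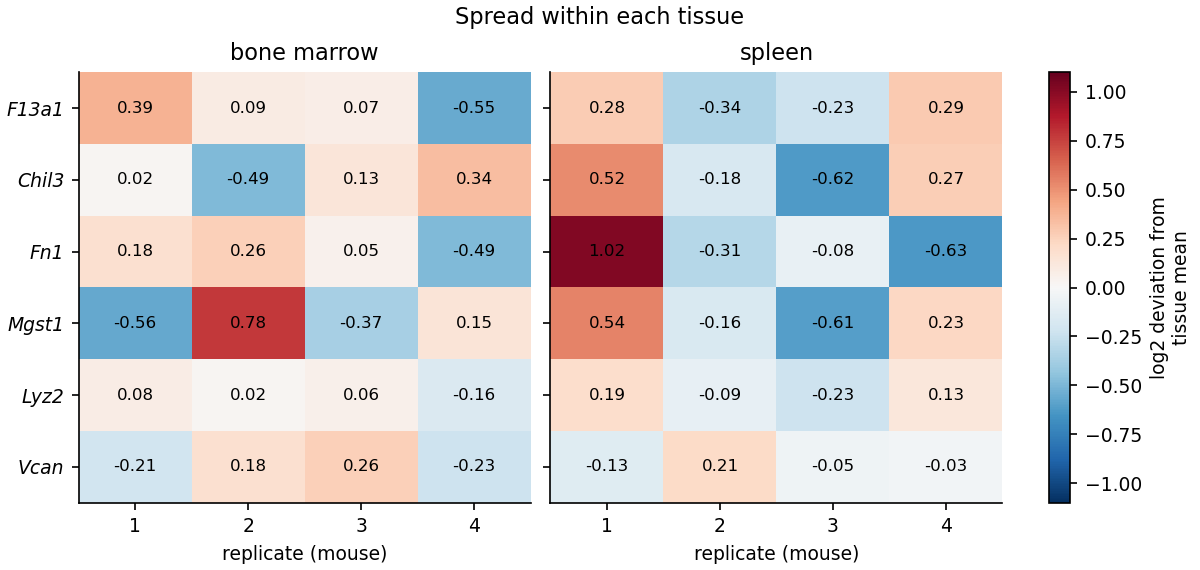
Deviation of each array from the mean of its tissue (log2 units, colour and printed value) for the 6 measured genes, with replicates of the same number from the same mouse. Bone marrow replicate 4 is low for F13a1 (-0.55) and Fn1 (-0.49) but high for Chil3 (0.34), and spleen replicate 1 is high for Fn1 (1.02).

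Beyond the 7 genes, a list of other classical monocyte genes moved in both directions. Of 16 measured, 9 were higher and 4 were lower, with a median log2 fold change of 0.78. Fcgr1, an Fc receptor that binds single antibody molecules, was 9.69-fold higher, Ccr2 was 6.95-fold higher and Hp, the haemoglobin scavenger haptoglobin, was 5.52-fold higher. The lower genes were S100a4, Ifitm6, Plac8 and S100a6. S100a4, a calcium-binding protein of motile cells, stood at 1859, 2346, 1806 and 2485 in bone marrow and 3410, 3400, 3603 and 3590 in spleen (1.66-fold lower; -0.73 ± 0.11 SE on the log2 scale over 4 arrays a tissue, adjusted p = 2.5e-04 in limma). Its groups did not overlap and its call held in all 19 alternatives. The calls of the interferon-induced gene Ifitm6 (1.44-fold lower), of Plac8 (1.37-fold lower) and of the calcium-binding gene S100a6 (1.26-fold lower) ended with median centring and without several single arrays (limma adjusted p up to 0.14, 0.21 and 0.22). With the mouse as a replicate block S100a6 also missed the threshold.

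The Ly6 family, to which Ly6c2 belongs, encodes small surface proteins held by a lipid anchor. Of its 14 measured genes 2 were higher and none was lower in limma (1 at an unadjusted p under 0.05), where 9.26% of all genes were higher. Ly6g, whose product marks neutrophils, stood at 209, 144, 156 and 186 in marrow and from 39.3 to 72.5 in the 4 spleen arrays (2.96-fold higher; 1.56 ± 0.18 SE on the log2 scale over 4 arrays a tissue, adjusted p = 3.1e-05 in limma). Lynx1, best known as a modulator of nicotinic receptors, was 1.39-fold higher (limma adjusted p = 0.0023). Ly6e, the brightest of the family here, stood at 10408 and 8737 (0.25 ± 0.09 SE on the log2 scale over 4 arrays a tissue, adjusted p = 0.067 in limma). Its 4 marrow arrays lay above the 4 spleen arrays, but the difference passed the threshold only with the trended robust variance model and without spleen replicate 4.

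Markers of other cells were also higher in these marrow arrays, and their part in the results above was not tested. Of 19 neutrophil genes 18 were higher, with a median log2 fold change of 2.80 and summed intensities from 27122 to 35439 in marrow and from 3468 to 4338 in spleen. The largest were the granule protein gene Ngp (33.8-fold), the calprotectin subunit S100a8 (25.2-fold) and the lipocalin Lcn2 (21.1-fold); Lyz2 and Chil3 are also made by neutrophils. Of 18 macrophage genes 13 were higher, with sums from 28731 to 42681 and from 6794 to 7743, and the mannose receptor Mrc1 (13.7-fold), the receptor kinase Axl (12.8-fold) and the complement gene C1qa (12.4-fold) had the largest folds. Of 13 non-classical monocyte genes 11 were higher, led by the fatty acid-binding protein Fabp4 (5.99-fold), Cx3cr1 (4.12-fold) and the receptor Cd300e (3.16-fold), with sums from 22686 to 30884 and from 12162 to 14246. None of these 3 lists had a member lower in limma (1 macrophage gene at an unadjusted p under 0.05).

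Stromal cells and platelets can also carry Fn1, Vcan or F13a1, and their part in the results above was not tested. Of 14 stromal and endothelial genes 1 was higher (Cxcl12, a chemokine of marrow stroma, 1.46-fold), where 9.26% of all genes were higher. Another 1 was lower (the endothelial and leukocyte adhesion gene Pecam1, 1.53-fold), where 9.20% of all genes were lower. The list's summed intensity lay from 2141 to 2262 in marrow and from 2446 to 2537 in spleen. Pecam1, the brightest gene of the list, weighs most in this sum, at 567 to 852 in marrow and 1040 to 1206 in spleen. The sum therefore does not give the direction of the other genes, and the list's median log2 fold change was 0.03. The collagen gene Col1a1 stood at 270 and 258. The summed intensity of 7 platelet genes lay from 1216 to 3436 in marrow and from 944 to 2905 in spleen. Of these genes 1 was higher, the platelet chemokine Pf4, at 529, 1530, 989 and 302 in bone marrow and 65.9, 90.2, 81.5 and 575 in spleen (5.43-fold, limma adjusted p = 0.014). Its groups overlapped through spleen replicate 4, and the call ended with a robust trended variance model and without replicate 1, 2 or 3 of both tissues (limma adjusted p up to 0.13). Pf4 and F13a1 were both lowest of the marrow arrays in replicate 4, while in marrow F13a1 was highest in replicate 1 and Pf4 in replicate 2. In spleen Pf4 was highest in replicate 4, whereas F13a1 was nearly level in replicates 1 and 4 (102.9 and 103.3). The marrow order of Pf4 was not that of the platelet list. The sum of the 7 platelet genes was highest in bone marrow replicate 3 (3436) and lowest in replicate 4 (1216). F13a1 stood at 1382 in the first of these arrays and at 896 in the second.

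**Figure D4:**
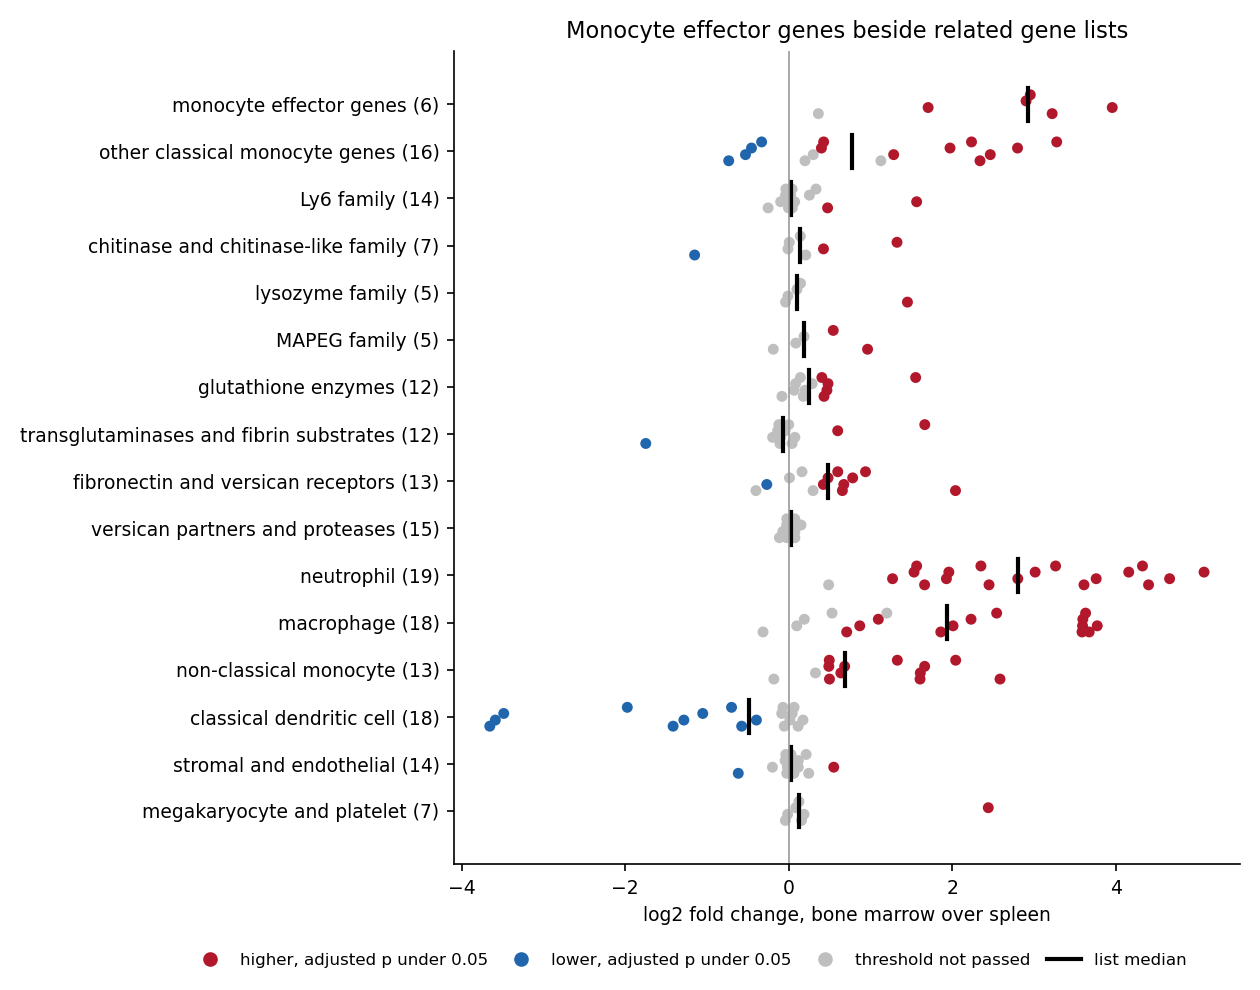
Log2 fold change, bone marrow over spleen, of every measured gene of the 6 monocyte effector genes and of 15 related lists (number measured in brackets); red and blue points passed a limma adjusted p of 0.05, grey points did not, and black bars are list medians. The medians of the effector genes (2.93) and of the neutrophil list (2.80) lie farthest to the right, and the versican partners lie near 0.

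The genes closest to each effector gene over the 8 arrays were found by the root mean square difference between log2 profiles, each centred on its own mean, which is a description that says nothing of shared function. For F13a1 they were Cd93, a lectin-like receptor (0.204), the lipoprotein lipase Lpl (0.25) and Mrc1 (0.266). For Chil3 they were the galactose-binding lectin Mgl2 (0.329), the neutrophil resistin-like gene Retnlg (0.335) and the calprotectin subunit S100a9 (0.36). For Fn1 they were the Fc receptor Fcgr3 (0.341), Mgl2 (0.343) and the actin-capping gene Capg (0.378). For Mgst1 they were the integrin chain Itgb5 (0.296), the surface receptor Slamf9 (0.371) and the lipid-sensing nuclear receptor Pparg (0.381). Lyz2 had closer neighbours, the Golgi mannosidase Man1c1 (0.103), the Rac activator Dock1 (0.115) and the phosphatase Dusp3 (0.121). For Vcan they were the ATP-gated channel P2rx1 (0.0942), the adhesion adaptor Sorbs3 (0.101) and the corepressor Nacc2 (0.11). The distances are small where the tissue difference and the spread are small, so they do not rank the genes by likeness. Of these 18 pairs, 16 were also found after quantile normalization and all 18 after median centring or with the mean of probe sets.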

How the data were processed

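Expression was measured in 8 samples on Affymetrix mogene 1.0 ST arrays. The authors deposited 1 intensity per probe set and array, on a linear scale, for which the submitters' processing notes name Affymetrix Expression Console 1.4. The sources used here do not say how background, normalization and probe summaries were handled; no detection call or background value was used, and whether background under dim values narrows their folds was not tested. Per the labels' protocols, labelling used a reagent kit meant for picogram RNA inputs, whose amplification can add spread.

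Of 35556 probe sets, 21789 had exactly 1 gene symbol in a platform annotation table, 1621 had several and 12146 none. The brightest probe set per gene was kept, which left 19938 genes, with no filter on dim genes. Log2 intensities were fitted with limma 3.58.1 in R 4.3.3 (lmFit, eBayes), without the mouse as a term, because the labels name no test. The description labels give same-numbered arrays the same mouse. Their deviations from the tissue means correlated across genes with r = 0.0962, -0.0877, -0.178 and -0.0544. On simulated data with 200 of 19938 genes changed, the fit recovered 31 of 50 changes of 0.5 on the log2 scale, 47 of 50 of 1 and all 50 of 2. It called 15 of the 19738 unchanged genes. The simulated noise was independent between arrays, without mice, and far fewer genes were changed than the 18.5% that passed in the data. The recovery therefore need not hold for these arrays.

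The 7 genes and the 15 lists (199 memberships, 188 measured) were chosen with earlier results of these data known. Named genes were the 7, any member of the family lists, up to 3 genes per direction, those of largest fold among the called, from each marker list and the glutathione list, and the 3 nearest genes of each member. The exact permutation within mice was added after seeing the data. Other names (Itgax, H2-Ab1, Flt3, Zbtb46, Clec9a, Batf3, Irf8, S100a6, Col1a1) were chosen after their values were seen. Protein sequences were not used here. Alternatives were quantile normalization, median centring, leaving out the dimmest 40% of genes, averaging probe sets, a trended robust variance model, array weights, the mouse as a replicate block, and leaving out each array or each mouse.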

Additional observations from a re-analysis of the deposited data

Results flagged for a closer look

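Within each tissue, arrays were compared by the gap between the highest or lowest of the 4 arrays and its neighbour, divided by the range of log2 intensities. Of 180 groups of 4 arrays over 90 named genes, 14 had a ratio above the critical value of 0.829, and chance flags about 1 in 20. None was a group of the 6 effector genes.

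Among their relatives, Lyz1 was low in bone marrow replicate 4, at 1411 against 2414 to 2608 in the other 3 (0.874), an array that was also the lowest for Lyz2. Chil1 was low in spleen replicate 3, at 66.4 against 100.3 to 109.1 (0.829). Plaur was low in spleen replicate 2 (0.935, 281.7 against 395.2 to 404.6), Tgm1 was high there (0.871), Itgb1 was high in spleen replicate 4 (0.891), Gstm1 was low in bone marrow replicate 3 (0.831) and the dim Lyzl6 was high in bone marrow replicate 1 (0.907, 29.49 against 28.15 to 28.27). The dim Fgg was high in bone marrow replicate 2 (0.836) and low in spleen replicate 3 (0.84). Among the marker and nearest genes, Fcgr1 was low in bone marrow replicate 1, at 968.6 against 1379 to 1421 (0.922), as was Pparg (0.851). In spleen, Pf4 was high in replicate 4 (0.855), S100a8 was low in replicate 4 (0.898) and Retnlg was low in replicate 3 (0.864).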

How the results depend on the processing

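Of 784 values of these results under alternatives, 737 kept their direction and their side of the threshold, or for counts stayed within 1.5 times. A reversal could be recorded only for the fold changes of the effector genes, and none of those reversed. Counts that were 0 in every setting are among the 737. F13a1, Fn1, Lyz2, Chil3 and Mgst1 stayed higher in all 19 alternatives, with limma adjusted p up to 0.0011 and log2 fold changes of 3.81 to 4.24, 2.74 to 3.29, 1.61 to 1.80, 2.97 to 3.40 and 2.59 to 3.27. By the exact permutation within mice, chosen after seeing the data, their p was 0.125, the smallest possible there, against 0.0286 over all splits. The Vcan difference of 0.36 passed with the mouse as a replicate block (0.36, limma adjusted p = 0.034) and with the trended robust variance model (0.36, 0.046). With arrays left out it ran from 0.26 to 0.44. It passed without bone marrow replicate 1 (0.43, limma adjusted p = 0.037), bone marrow replicate 4 (0.44, 0.029) or spleen replicate 2 (0.43, 0.041). It missed in the others, with limma adjusted p up to 0.28, and Vcan was left out with the dimmest 40% of genes. The count of effector genes called was 5 or 6 throughout, and the replicate block called 3378 genes in all against 3681 and moved no other count here by over 1.5 times. Median centring left 1 lower gene among the other classical monocyte genes (4 in the fit above) and 0 among the fibronectin and versican receptors (1 above). Leaving out the dimmest genes, which removes members, left 1 higher Ly6 gene, 0 lower chitinase family genes and 0 higher stromal genes. The trended robust model left 0 higher platelet genes. With single arrays or mice left out, the lower count was 1 to 4 for the other classical monocyte genes, 0 to 1 for the receptors, 0 to 1 for macrophage and for non-classical monocyte genes and 1 to 2 for stromal genes. The higher count was 1 to 2 for the chitinase family and for the transglutaminase list, 3 to 6 for glutathione enzymes and 0 to 1 for platelet genes. The cause of these shifts was not tested. Signal over background, which is unknown here, limits the dim genes, among them Vcan in both tissues and Mgst1, Chil3 and F13a1 in spleen.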

Other observations

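Both probe sets whose annotation names Ly6c2 together with Ly6c1 were brighter in bone marrow, as values that cannot be assigned to either gene. The first stood at 1375, 1230, 1225 and 2431 in marrow replicates 1 to 4, and 572.7, 348.2, 355 and 650.1 in the spleen replicates, a 3.23-fold difference of geometric means. The second stood at 1175, 1086, 1109 and 2050 and at 500.1, 365.7, 330.7 and 600.7, a 2.99-fold difference. Bone marrow replicate 4, the highest array for both probe sets and for Chil3, was the lowest marrow array for F13a1, Fn1 and Lyz2. In spleen both probe sets were higher in replicates 1 and 4 than in replicates 2 and 3, the same division as for F13a1, Lyz2, Chil3 and Mgst1. These orders were noticed in the data and were not tested.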
